A study of Homo sapiens with 6 samples.

Results

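The genes described here are 49 human genes whose products license replication origins, fire them and copy DNA at the fork, together with enzymes of dNTP supply and UHRF1. They were taken by symbol from the 34811 rows of the deposited gene count table, each symbol matched 1 row, and all 49 had enough counts to be tested. RNA-seq was performed on derivatives of OVCAR-3, an established human ovarian carcinoma line. The control, OV3/SCR, carries the scrambled pRS shRNA HuSH-29 plasmid and has wild-type COX-1 status, while OV3/COX1KD carries a pRS shRNA against COX-1, the prostaglandin-producing cyclooxygenase encoded by PTGS1. Both were transfected, selected for the plasmid and grown in RPMI-1640 with serum, and 3 populations of each were harvested while still dividing, which gives 3 libraries per condition. Each condition is 1 stable clone, so clone and knockdown cannot be told apart, and the p-values measure the spread between cultures of a clone. The comparison asks how transcripts of the replication machinery differed between COX-1 proficient and COX-1 knockdown cells.

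Replication begins when the origin recognition complex, CDC6 and CDT1 load the MCM helicase onto DNA in a step called licensing, which geminin blocks once S phase is under way. CDC45 and the GINS complex then join MCM to form the active helicase, polymerase alpha-primase lays down primers, and polymerases delta and epsilon extend them with the PCNA clamp and its RFC loader. Many of these genes are transcribed in late G1 and S phase through E2F sites in their promoters, so their levels are often read together as a proliferation signature in tumors.

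The libraries held between 25291505 and 27391538 counts, and their chi-square per degree of freedom was 1.82 to 6.40 within a condition and 46.2 to 61.0 between conditions. PTGS1, the targeted gene, had 713, 658 and 641 counts in OV3/SCR and 456, 486 and 501 in OV3/COX1KD, a log2 fold change of -0.45 (SE 0.06, edgeR FDR 1.3e-06). Markers of an ovarian epithelial line, EPCAM, KRT8, KRT18, KRT19, PAX8, WT1, MUC16 and MSLN, were abundant in every library. Their levels were not alike in the conditions, and each differed at an edgeR FDR under 0.01, as did 47.9% of all tested genes. PAX8 was lower in OV3/COX1KD (log2 fold change -0.76, SE 0.03) and the rest were higher, from 0.32 for KRT19 to 1.36 for MUC16. Of the 9 markers of other cell types found in the table, PTPRC, CD3E, CD14, DCN, COL1A2, COL3A1 and LUM had at most 24 counts in a library and VWF had 25 to 52. COL1A1, a fibrillar collagen, was the exception, with 258 to 270 counts in OV3/SCR and 143 to 160 in OV3/COX1KD, and it was lower (log2 fold change -0.77, SE 0.09, edgeR FDR 5.3e-07).

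Of the 49 replication genes, 21 were lower and 5 were higher in OV3/COX1KD at an FDR under 0.01, and 23 did not pass. The background was large, because 47.9% of the 17309 genes tested passed this threshold, 22.1% lower and 25.8% higher. Among the 8819 genes in the abundance range of the replication genes, 62.2% passed, 26.3% lower and 35.9% higher. The replication genes were therefore lower in 42.9% and higher in 10.2% of cases, against those shares. Their median log2 fold change was -0.08, while the median over all genes was -0.01 and that of the genes in the same abundance range was 0.04. Scaling by total counts in place of TMM gave 32 lower and 4 higher replication genes, and it took the share of higher calls among all called genes from 53.9% to 41.0%.

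The differences were small. No replication gene passed a log2 fold change of 0.5 in either direction, whereas 19.9% of all genes did, and none reached a 2.5-fold change, which 3.92% of all genes did. With total count scaling 4 genes (UHRF1, ORC1, GINS3 and POLE) were lower by more than 0.5. The estimates ran from -0.48 for UHRF1 to 0.46 for RPA3, and 35 of the 49 were negative. So were 8812 of all 17309 tested genes and 3926 of the 8819 in the abundance range of the replication genes. In 27 genes all 3 OV3/COX1KD libraries lay below all 3 OV3/SCR libraries and in 9 they lay above, where 30.7% and 32.5% of all genes did so and 63.2% had conditions that did not overlap. Summed over the 49 genes, the level was 4615 ± 28.8 CPM (SD, n = 3) in OV3/SCR and 4409 ± 52.0 in OV3/COX1KD, or 95.5% of the control. CPM here are counts scaled to library size with TMM factors. In bulk RNA, fewer cells in S phase and less of a transcript per cell cannot be told apart.

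**Figure D1:**
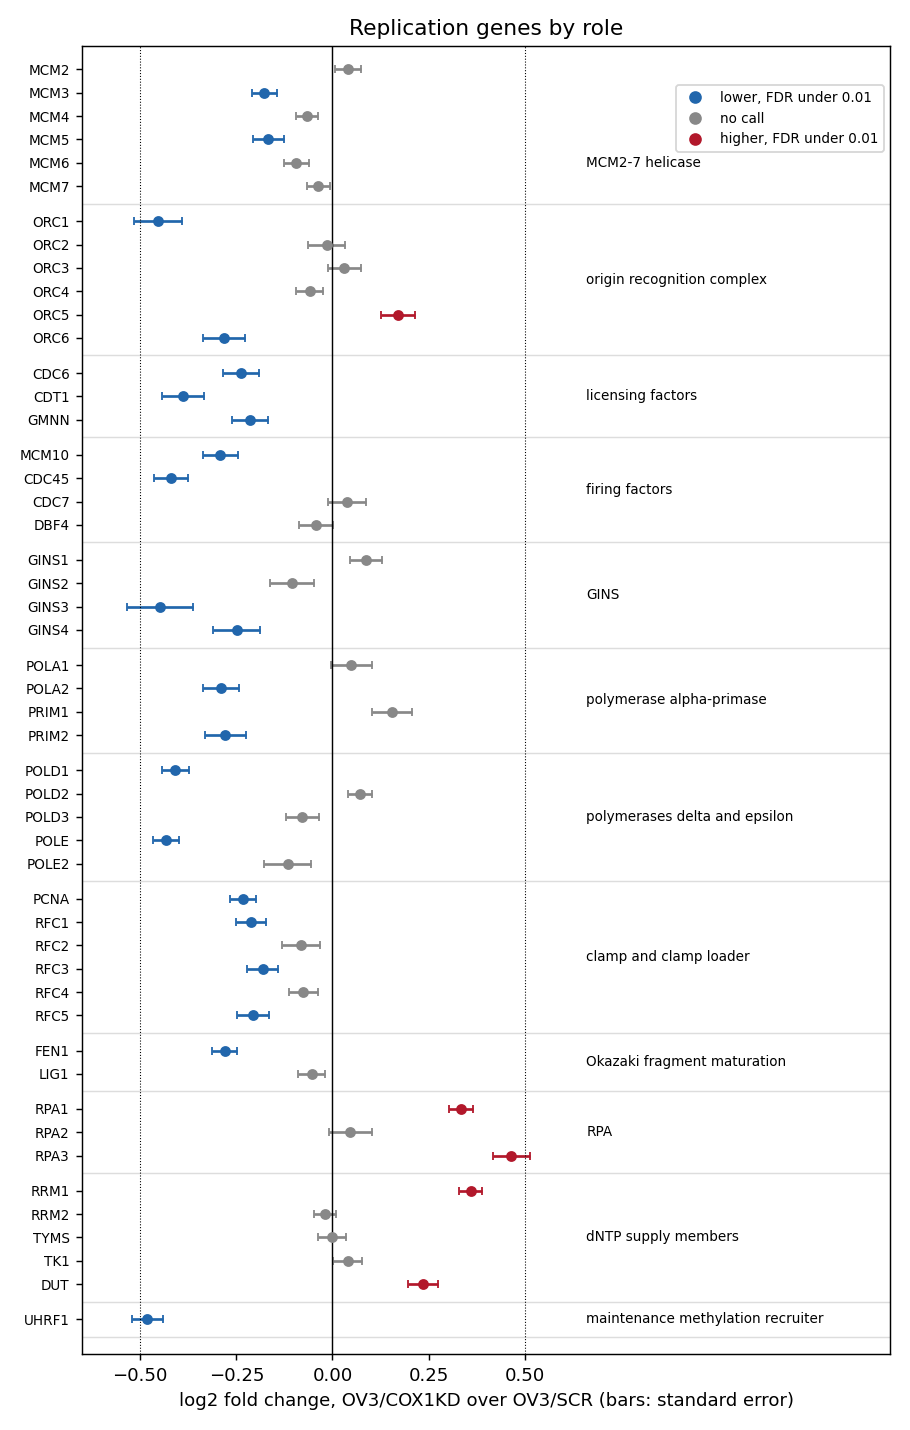
Log2 fold change of each of the 49 replication genes (x axis, OV3/COX1KD over OV3/SCR, bars are the standard error), ordered by role, with dotted lines at the 0.5 limit. All 49 points lie inside the dotted lines, the 21 lower genes are spread over most complexes, and the 5 higher genes sit mainly in RPA and dNTP supply.

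**Figure D2:**
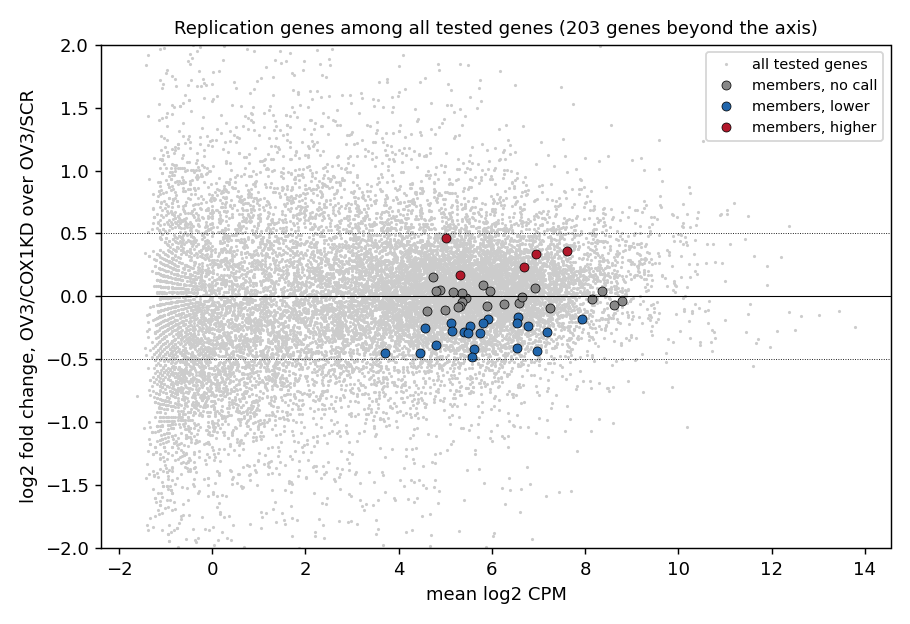
Log2 fold change (y axis) against mean log2 CPM (x axis) for all 17309 tested genes in grey and the 49 replication genes in colour. The replication genes occupy a narrow band between -0.48 and 0.46, and 203 other genes lie beyond the axis.

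Promoter sequences are shown for 3 genes with E2F words and for 1 higher gene without one. RefSeq promoters (assembly GRCh38.p14, 250 bases before to 50 after the gene start) were found for 43 of the 49 genes. The words searched, on both strands, were TTTCCCGC, TTTGGCGC, TTTCGCGC and TTTGCCGC, and an exact word was present in 19 of the 43 promoters (44.2%) and in 908 of 27305 RefSeq promoters (3.33%). Below are the 250 bases before the start, 5′ to 3′ on the gene's strand, with E2F words in capitals. They are CDT1, the most reduced licensing factor (chr16:88803539-88803788, plus strand), UHRF1, the most reduced gene (chr19:4909251-4909500, plus strand), MCM6, a helicase subunit without a call (chr2:135876444-135876693, minus strand), and RPA1, which was higher (chr17:1829755-1830004, plus strand).
CDT1: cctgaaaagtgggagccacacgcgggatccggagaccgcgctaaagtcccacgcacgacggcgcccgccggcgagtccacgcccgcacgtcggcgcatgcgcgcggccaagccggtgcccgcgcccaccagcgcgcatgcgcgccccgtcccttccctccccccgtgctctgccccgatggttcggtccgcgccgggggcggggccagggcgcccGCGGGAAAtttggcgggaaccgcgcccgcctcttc
UHRF1: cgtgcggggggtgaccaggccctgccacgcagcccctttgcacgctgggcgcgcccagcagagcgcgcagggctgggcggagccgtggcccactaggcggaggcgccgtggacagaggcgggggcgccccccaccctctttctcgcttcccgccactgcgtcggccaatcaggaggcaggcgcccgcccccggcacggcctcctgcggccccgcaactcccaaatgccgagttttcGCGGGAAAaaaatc
MCM6: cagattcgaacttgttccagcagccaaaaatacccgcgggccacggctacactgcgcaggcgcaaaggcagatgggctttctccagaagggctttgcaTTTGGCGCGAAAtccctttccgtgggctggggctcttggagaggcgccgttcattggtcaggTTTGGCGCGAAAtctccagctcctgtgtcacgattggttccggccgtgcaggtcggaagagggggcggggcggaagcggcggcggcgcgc
RPA1: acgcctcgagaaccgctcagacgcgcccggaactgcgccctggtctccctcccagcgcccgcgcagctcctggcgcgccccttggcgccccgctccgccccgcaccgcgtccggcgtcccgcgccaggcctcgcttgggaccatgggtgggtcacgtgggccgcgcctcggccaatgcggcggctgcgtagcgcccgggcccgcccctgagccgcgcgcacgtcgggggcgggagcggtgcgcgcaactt

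In CDT1 the word GCGGGAAA began 35 bases before the start, and in UHRF1 the same word began 14 bases before it. The MCM6 promoter held 4 matches in overlapping pairs, each pair being TTTGGCGC joined to GCGCGAAA, and the RPA1 window held no match. By direction, 9 of the 19 lower genes with a promoter, 10 of the 20 genes without a call and 0 of the 4 higher genes had an E2F word. The genes with a word were CDC6, CDT1, GINS1, GINS2, GINS3, LIG1, MCM2, MCM3, MCM6, MCM7, ORC3, PCNA, POLA1, POLA2, POLE, POLE2, RFC3, TYMS and UHRF1. The CCAAT box, searched as CCAAT, was in 23 of the 43 promoters (53.5%) and in 35.7% of all promoters, and the CHR element, searched as TTTGAA, was in 2 (4.65%) and in 15.4%. None of the E2F words contains CCAAT or TTTGAA. GINS4, MCM4, MCM5, POLD3, RPA2 and RPA3 had no entry. A match is only a run of letters, and no binding was measured here.

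All 3 licensing factors were lower, where 26.3% of all genes in the abundance range of the replication genes were. CDT1, which brings the MCM helicase to the origin (GRCh37 chr16:88870197-88875666, plus strand), had 31.4, 32.7 and 30.2 CPM in OV3/SCR and 25.3, 23.2 and 23.5 in OV3/COX1KD. The conditions did not overlap, and the log2 fold change was -0.39 (SE 0.05, edgeR FDR 4.1e-06). CDC6, the ATPase that acts with CDT1, had 50.6, 47.4 and 51.4 CPM in OV3/SCR and 42.2, 40.2 and 44.3 in OV3/COX1KD, also without overlap (-0.24, SE 0.05, FDR 2.4e-04). Geminin, encoded by GMNN, is the inhibitor of CDT1, and it fell with its target, from 37.1 ± 0.95 to 32.0 ± 0.29 CPM (SD, n = 3), a log2 fold change of -0.21 (SE 0.05, FDR 5.1e-04). Together the 3 transcripts stood at 83.0% of their OV3/SCR level. Per kilobase of transcript, CDT1 was above CDC6 in OV3/SCR (11.8 and 10.9 CPM per kb) and close to it in OV3/COX1KD (9.01 and 9.25).

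Within the origin recognition complex, which marks origins throughout the cell cycle, the subunits moved in different directions. ORC1, the subunit whose abundance is cell-cycle regulated, had 23.9, 26.1 and 25.3 CPM in OV3/SCR and 17.1, 18.2 and 19.7 in OV3/COX1KD. Every knockdown library was below every control library, and the log2 fold change was -0.45 (SE 0.06, FDR 3.6e-06). ORC6 was lower as well, at 43.9, 47.2 and 48.8 CPM in OV3/SCR and 37.5, 41.7 and 35.9 in OV3/COX1KD (-0.28, SE 0.05, FDR 2.0e-04). ORC5 was higher (0.17, SE 0.04, FDR 0.0027), at 38.6, 36.6 and 37.2 CPM in OV3/SCR and 42.9, 41.2 and 42.5 in OV3/COX1KD. This call was lost with DESeq2, with total count scaling and with offsets for GC and length. Leaving out replicate 2 or 3 of OV3/SCR ended it, as did leaving out replicate 1 or 3 of OV3/COX1KD, and over these settings the estimate was 0.09 to 0.17. ORC2, ORC3 and ORC4 had estimates of -0.02, 0.03 and -0.06 and did not pass. Per kilobase, ORC1 was the scarcest subunit in both conditions (8.04 and 5.87 CPM per kb) and ORC6 the most abundant (28.9 and 23.8), so that the level ratio between them was 3.59 in OV3/SCR and 4.05 in OV3/COX1KD.

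Of the 6 MCM helicase subunits, 2 were lower (33.3%) and 4 did not pass. In the abundance range of the replication genes 26.3% of all genes were lower, so this share was near the background. MCM7, MCM4 and MCM2 had the highest levels per kilobase of the genes with a known length. The 6 subunits summed to 1695 ± 6.97 CPM in OV3/SCR and 1624 ± 43.2 in OV3/COX1KD (SD, n = 3), or 95.8%. MCM3 was lower (265, 249 and 261 CPM against 230, 222 and 233, log2 fold change -0.18, SE 0.03, FDR 8.8e-05). MCM5 was lower too (94.1, 102 and 105 CPM against 91.2, 89.3 and 87.7, -0.17, SE 0.04, FDR 0.0013), although without OV3/SCR replicate 2 or 3 its call was lost (-0.15 and -0.13). MCM2, MCM4, MCM6 and MCM7 did not pass, with estimates of 0.04, -0.07, -0.09 and -0.04. The MCM2 estimate was -0.037 with total count scaling and 0.090 without OV3/COX1KD replicate 2, where it was called higher (FDR 0.0018). MCM6 was called lower in 5 of 14 alternatives, among them the offsets for GC and length (-0.14, FDR 5.7e-04) and the fit without OV3/COX1KD replicate 2 (-0.095), and MCM4 and MCM7 were so with total count scaling alone (-0.15 and -0.11). With all libraries the 95% interval of the MCM2 estimate ran from -0.03 to 0.11. The libraries of MCM4 and MCM6 did not overlap, those of MCM2 and MCM7 did. Although the 6 proteins form a ring with 1 copy of each, their transcript levels per kilobase differed widely, from 29.0 ± 1.60 CPM per kb for MCM5 to 183 ± 2.56 for MCM7 in OV3/SCR and from 25.8 ± 0.50 to 178 ± 5.57 in OV3/COX1KD. MCM7 shares 7.9% of its exon bases with AP4M1 on the opposite strand, and these reads cannot be assigned by strand in this kit. MCM2 shares 23.6% with a non-coding transcript that has no row in the count table. Any effect on the MCM2 counts was not tested.

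Among the factors that turn loaded MCM into an active helicase, CDC45 and MCM10 were lower and both kinase subunits did not pass. CDC45, a helicase subunit, had 54.7, 54.6 and 58.2 CPM in OV3/SCR and 40.6, 43.5 and 41.2 in OV3/COX1KD, 2 well-separated sets with a log2 fold change of -0.42 (SE 0.04, FDR 1.0e-07). MCM10, which is needed for helicase activation, had 50.2, 47.2 and 50.9 CPM in OV3/SCR and 39.9, 39.3 and 41.9 in OV3/COX1KD (-0.29, SE 0.05, FDR 1.6e-05). The levels of MCM10 again did not overlap. CDC7 and its activator DBF4, the kinase that phosphorylates MCM, had estimates of 0.04 (SE 0.05) and -0.04 (SE 0.04), with overlapping libraries. In the GINS complex, GINS3 had 14.1, 14.9 and 16.1 CPM in OV3/SCR and 12.6, 10.2 and 10.2 in OV3/COX1KD. It had the fewest counts of the 49 genes, and its fall of 0.45 on the log2 scale carried the largest error (SE 0.09, FDR 1.5e-04). GINS4 had 26.5, 25.6 and 24.2 CPM in OV3/SCR and 22.4, 19.5 and 22.2 in OV3/COX1KD. It was lower (-0.25, SE 0.06, FDR 0.0019), a call lost without OV3/SCR replicate 1 or 2 (-0.22 and -0.24), and 21.0% of its exon bases are shared with a non-coding transcript on the other strand. GINS1 and GINS2 did not pass, with estimates of 0.09 and -0.11. Per kilobase, GINS1 had the highest level of the complex in both conditions (16.4 and 17.5 CPM per kb), and the level ratio of the highest to the lowest subunit was 2.44 in OV3/SCR and 3.48 in OV3/COX1KD.

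**Figure D3:**
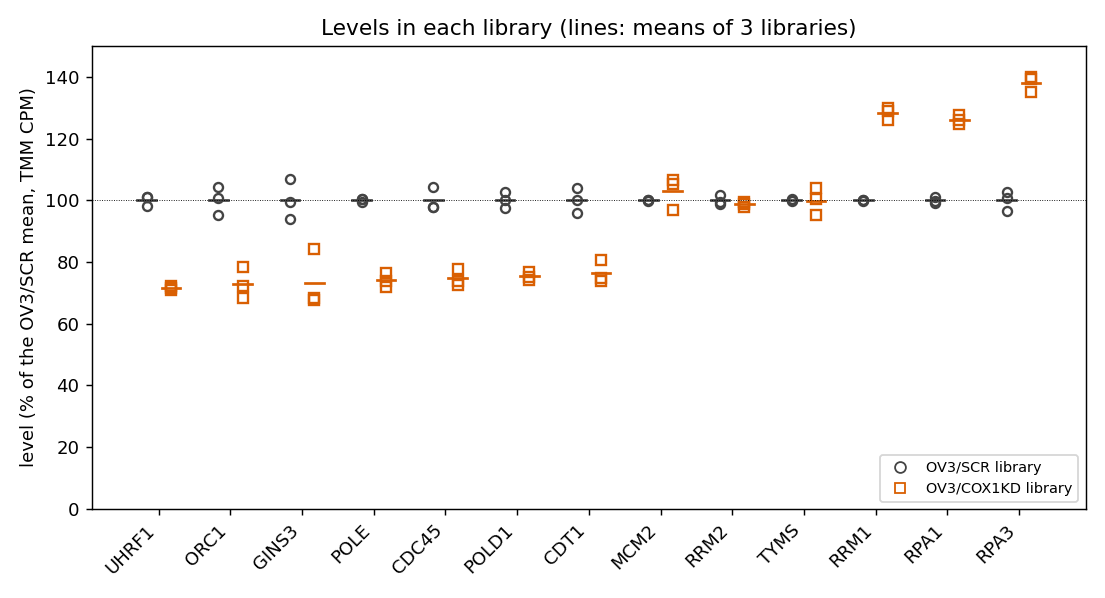
Level of 13 replication genes in each library (y axis, percent of the OV3/SCR mean of TMM CPM, circles OV3/SCR, squares OV3/COX1KD, lines the means of 3 libraries). The knockdown squares of UHRF1 to CDT1 lie below all control circles, those of MCM2, RRM2 and TYMS overlap them, and those of RRM1, RPA1 and RPA3 lie above.

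The catalytic subunits of both leading and lagging strand polymerases were lower, and the accessory subunits among the 49 genes did not pass. POLE, the catalytic subunit of polymerase epsilon (GRCh37 chr12:133200339-133263962, minus strand), had 145, 145 and 144 CPM in OV3/SCR and 111, 104 and 107 in OV3/COX1KD. POLD1, that of polymerase delta (GRCh37 chr19:50887461-50921275, plus strand), had 109, 106 and 103 CPM in OV3/SCR and 78.6, 79.9 and 81.5 in OV3/COX1KD. Their libraries did not overlap and their log2 fold changes were close, -0.43 for POLE (SE 0.03, FDR 9.8e-10) and -0.41 for POLD1 (SE 0.03, FDR 5.5e-09). POLD2 and POLD3 of polymerase delta had estimates of 0.07 and -0.08, and POLE2 of polymerase epsilon -0.12 (SE 0.06), none of which passed. Their libraries did not overlap, however. POLD2 was called higher with offsets for GC and length (0.11, FDR 0.0065), and POLD3 and POLE2 were called lower with total count scaling (-0.16 and -0.19). POLE2 was also called lower with offsets for GC and length and a replicate block. Of the accessory subunits outside the 49, POLD4 (-0.53) and POLE4 (-0.20, FDR 0.0021) were lower and POLE3 was higher (0.21, FDR 6.8e-05). The POLE4 call held in 11 of 14 alternatives. The POLD2 level per kilobase, 73.6 in OV3/SCR and 77.3 in OV3/COX1KD, was above that of POLD1 in both conditions (30.9 and 23.3).

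In polymerase alpha-primase the catalytic subunits did not pass and the others were lower. POLA1, the polymerase subunit, had an estimate of 0.05 (SE 0.05) and PRIM1, the catalytic primase subunit, one of 0.16 (SE 0.05, FDR 0.015), just outside the threshold with non-overlapping libraries. POLA2, the accessory B subunit, had 59.3, 61.2 and 56.0 CPM in OV3/SCR and 46.5, 51.4 and 46.5 in OV3/COX1KD (-0.29, SE 0.05, FDR 3.0e-05). PRIM2, the large primase subunit, had 40.0, 38.0 and 38.6 CPM and then 33.6, 29.4 and 33.1 (-0.28, SE 0.05, FDR 1.6e-04). Per kilobase, PRIM2 was above PRIM1 in OV3/SCR (23.1 and 17.7 CPM per kb). In OV3/COX1KD their levels differed by less than the spread, at 19.7 ± 0.62 for PRIM1 and 19.0 ± 1.37 for PRIM2 (SD, n = 3). PRIM1 shares 4.2% of its exon bases with NACA, so some of its reads may have been split or lost. PRIM2 shares 12.9% with the annotated copy PRIM2BP, which has no row in the count table, and any effect on the PRIM2 counts was not tested.

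The sliding clamp PCNA, which tethers the polymerases to DNA, had 120, 116 and 117 CPM in OV3/SCR and 97.4, 101 and 102 in OV3/COX1KD. This clear separation gave a log2 fold change of -0.23 (SE 0.03, FDR 6.0e-06). The 5 subunits of its loader, RFC, all had negative estimates and 3 were called lower. Among all genes in the abundance range of the replication genes, 26.3% were lower. RFC1, the large subunit, had 98.9, 96.9 and 103 CPM in OV3/SCR and 87.2, 81.8 and 88.7 in OV3/COX1KD (-0.21, SE 0.04, FDR 9.1e-05). RFC5 had 62.0, 58.2 and 59.8 CPM and then 51.0, 54.1 and 50.9 (-0.21, SE 0.04, FDR 2.7e-04), and RFC3 had 64.5, 61.5 and 66.1 CPM and then 56.7, 55.3 and 57.5 (-0.18, SE 0.04, FDR 7.0e-04). None of these 3 genes overlapped between conditions. RFC2 and RFC4, both with an estimate of -0.08, did not pass, and the libraries of RFC2 overlapped while those of RFC4 did not. Both were called lower with total count scaling, and RFC4 also with offsets for GC and length (-0.13, FDR 0.0067). Without OV3/SCR replicate 3 the RFC3 call was lost (-0.15). FEN1, the flap nuclease that trims Okazaki fragments, fell from 164, 158 and 160 CPM to 135, 129 and 132 (-0.28, SE 0.03, FDR 3.6e-07). FEN1 libraries did not overlap. LIG1, the ligase that seals the fragments, did not pass (-0.05, SE 0.04) and its libraries overlapped.

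RPA is the trimer that coats single-stranded DNA at the fork. Of its subunits 2 were higher, where 35.9% of all genes in the abundance range of the replication genes were. The sum of the 3 subunits stood at 124% of its control level. RPA1, the large DNA-binding subunit, had 109, 110 and 108 CPM in OV3/SCR and 137, 136 and 139 in OV3/COX1KD (0.33, SE 0.03, FDR 2.0e-08). RPA3, the smallest subunit, had 27.4, 26.2 and 27.9 CPM and then 37.8, 38.0 and 36.6 (0.46, SE 0.05, FDR 8.0e-08). Neither overlapped between conditions. RPA2, the subunit phosphorylated upon replication stress, had 27.5, 25.4 and 29.1 CPM in OV3/SCR and 29.0, 27.3 and 28.5 in OV3/COX1KD, and did not pass (0.05, 95% interval from -0.06 to 0.16). Per kilobase, RPA3 lay below RPA2 in OV3/SCR (13.4 and 17.3 CPM per kb) and above it in OV3/COX1KD (18.6 and 17.8).

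**Figure D4:**
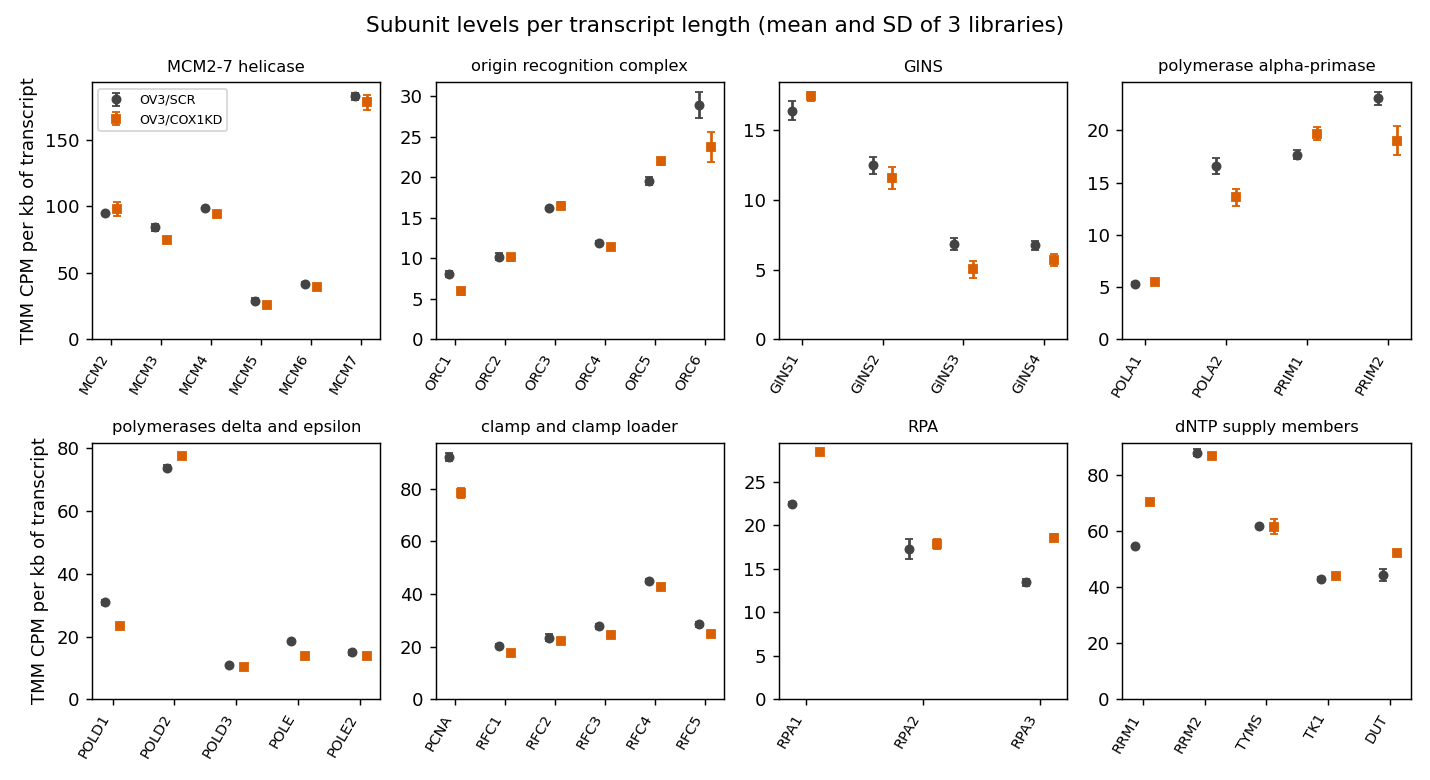
Level per kilobase of transcript (y axis, TMM CPM per kb, mean and SD of 3 libraries, circles OV3/SCR and squares OV3/COX1KD) for the subunits of 8 groups of replication genes. MCM7 stands at 183 and MCM5 at 29.0 CPM per kb in OV3/SCR, and the means of PRIM1 and PRIM2 and of RPA2 and RPA3 change order between conditions.

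In dNTP supply, 1 subunit of ribonucleotide reductase was higher and the other did not pass. RRM1, the large catalytic subunit (GRCh37 chr11:4115937-4160162, plus strand), had 172, 173 and 173 CPM in OV3/SCR and 222, 218 and 224 in OV3/COX1KD, a log2 fold change of 0.36 (SE 0.03, FDR 2.7e-09). RRM2, the S-phase radical-bearing subunit, had 284, 285 and 292 CPM and then 280, 283 and 286 (-0.02, 95% interval from -0.07 to 0.04). The RRM1 libraries were thus separated and the RRM2 libraries overlapped. DUT, the dUTPase that keeps uracil out of DNA, was higher, at 97.4, 89.6 and 97.8 CPM in OV3/SCR and 112, 114 and 110 in OV3/COX1KD (0.24, SE 0.04, FDR 2.4e-05). Thymidylate synthase, TYMS, and thymidine kinase, TK1, did not pass (-0.0017 and 0.04), and the overlap of TYMS with ENOSF1 on the opposite strand covers 39.9% of its exon bases. Processed copies of RRM2, DUT, PCNA and FEN1 in the table drew at most 16 counts in a library.

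UHRF1, which reads hemimethylated DNA behind the fork and recruits the maintenance methyltransferase DNMT1, had the largest fall of the 49 genes. Its levels were 55.8, 54.3 and 55.8 CPM in OV3/SCR and 39.3, 39.5 and 40.0 in OV3/COX1KD, with little spread and a wide gap. The log2 fold change was -0.48 (SE 0.04, FDR 4.3e-09), or 71.6% of the control level. Its identifier had no entry in the annotation used for coordinates and lengths.

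The replication genes in each direction differed in base composition, although their ranges overlapped. The median GC content of the transcripts was 48.0% for the 20 lower genes with a value, 44.6% for the 23 without a call and 43.0% for the 5 higher genes, and with offsets for GC and length 23 genes were lower and 5 higher.

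Other replication genes were counted from lists that share no member with the 49. Of 72 found, 31 were lower (43.1%) and 15 higher (20.8%), beside 22.1% and 25.8% of all tested genes, with a median log2 fold change of -0.05. The accessory factors of fork and origin contributed 15 lower and 0 higher of 22, with a median of -0.27. At an unadjusted p under 0.05, 2 of them were higher with edgeR and 1 with DESeq2. Chromatin assembly behind the fork contributed 7 lower and 1 higher of 12. The wider dNTP supply list had 7 higher (46.7%) and 4 lower (26.7%) of 15. Licensing control had 3 higher and 1 lower of 12, where 25.8% of all genes were higher, so its share of higher genes was near the background. Additional polymerase subunits, primer removal enzymes and topoisomerases had 4 in each direction of 11.

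The largest falls among these were RTEL1, a fork helicase (-0.74, SE 0.13), LRWD1, an ORC-associated protein (-0.64, SE 0.04), POLD4, the smallest polymerase delta subunit (-0.53, SE 0.12), and DBF4B, a paralog of DBF4 (-0.53, SE 0.06). RTEL1 has more than 1 row in the table and the row with the most counts was used, so its value is uncertain. LRWD1 had 81.0, 77.1 and 81.9 CPM in OV3/SCR and 51.0, 53.0 and 50.2 in OV3/COX1KD without overlap. Large rises were those of RRM2B, the p53-inducible alternative to RRM2 (0.73, SE 0.05), SKP2, a ubiquitin ligase subunit that marks CDT1 and p27 for degradation (0.45, SE 0.04), and TOP2A, the topoisomerase of dividing cells (0.37, SE 0.03). RRM2B had 24.3, 22.6 and 23.9 CPM in OV3/SCR and 38.1, 39.1 and 40.5 in OV3/COX1KD. RRM2B libraries were separated, whereas those of its paralog RRM2 overlapped. The genes listed here as falls and rises all had an edgeR FDR under 0.01.

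Genes of mitosis were counted as a comparison for the proportion of cycling cells. None of the 20 tested was lower with edgeR or DESeq2, also at an unadjusted p under 0.05. With edgeR 12 were higher (60.0%) and 8 did not pass, with a median log2 fold change of 0.14. Of all tested genes 25.8% were higher, with a median of -0.01. Among genes in the abundance range of the replication genes 35.9% were higher, with a median of 0.04. All 14 alternatives were applied to this list only after the data had been seen. With total count scaling 6 were higher and 2 lower (PLK1 and AURKA), with a median of 0.066. In the other 13 alternatives 10 to 12 were higher and 0 lower. MKI67, a marker of cycling cells, had an estimate of 0.24 (SE 0.05, edgeR FDR 5.9e-04), but with DESeq2 it did not pass (0.24, SE 0.10, FDR 0.040), and CDK1, the mitotic kinase, had an estimate of -0.02 and did not pass with either tool. The replication genes and the mitotic genes thus had medians of opposite sign, a difference for which no test was made, and the part of cell cycle distribution in either value was not tested.

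**Figure D5:**
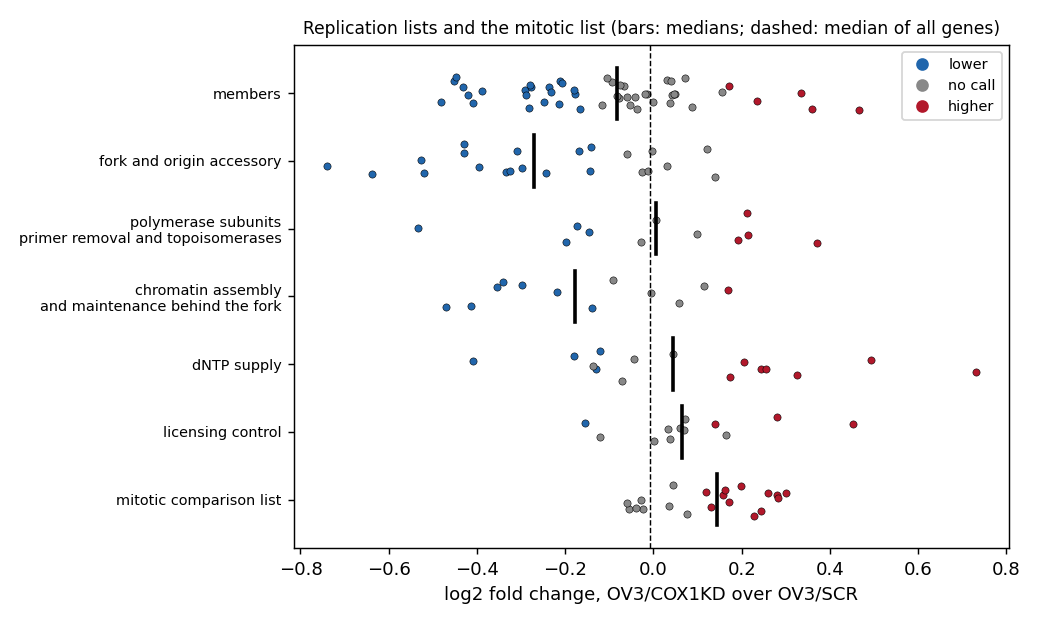
Log2 fold change (x axis, OV3/COX1KD over OV3/SCR) of each gene in the 49 replication genes (members), in 5 further replication lists and in the mitotic list, with black bars at the medians and the dashed line at the median of all genes. Fork and origin accessory genes have the lowest median, -0.27, and mitotic genes the highest, 0.14.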

How the data were processed

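RNA-seq libraries were made from 3 cultures each of OV3/SCR and OV3/COX1KD with an unstranded TruSeq kit. The authors deposited 1 table of raw read counts per gene for hg19/GRCh37. The submitters' processing notes name TopHat2 (2.0) and HTSeq. The annotation and the strand setting were not given in the sources used here. Total counts per library were 25291505 to 27391538, so the 49 genes had 255 to 12221 counts each in a library.

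The counts were tested with edgeR 4.0.16 in R 4.3.3: filterByExpr, TMM, quasi-likelihood F-test with condition as the sole term, and Benjamini-Hochberg adjustment over all 17309 genes kept, with an FDR threshold of 0.01. SE values are those of the log2 fold change, and for edgeR they were derived from the estimate and its F statistic. The 95% intervals take 1.96 SE on each side and are approximate. The script was tested on simulated data. DESeq2 1.42.0, other scalings and filters, a replicate block, GC and length offsets and leaving out each library were alternatives. Levels per kilobase used the canonical transcript of GENCODE lifted to GRCh37. This is 1 length per gene, so the order of different genes per kilobase depends on that choice.

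The 49 genes and all lists were chosen with earlier results of these data known. All 49 were named. From the other replication lists, the 4 largest rises and falls with an FDR under 0.01 and a mean log2 CPM of at least 1 were named, except 1 that is not reported here, and from the mitotic list MKI67 and CDK1. POLE3 and POLE4 were named in addition, beside POLD4. The printed promoters were chosen after the values were seen. NME2 of the dNTP list and PECAM1 of the markers were not analysed here. TICRR and PCLAF were matched by older symbols.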

Additional observations from a re-analysis of the deposited data

How the results depend on the processing

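In 14 alternatives the direction of every called replication gene held, and 22 of the 26 calls were kept in all of them. The exceptions were ORC5, MCM5, GINS4 and RFC3. Of the 23 genes without a call, 14 gained one under at least 1 alternative. Scaling by total counts moved the median of all genes from -0.01 to -0.09 and the share of higher calls among all called genes from 53.9% to 41.0%. It gave 32 lower replication genes and 4 lower beyond a log2 fold change of 0.5 (UHRF1, ORC1, GINS3 and POLE). The median of the replication genes was -0.16 with total counts, -0.060 with no filter, -0.099 with at least 10 counts in every library, and -0.13 after GC and length offsets both alone and with the replicate block.

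Leaving out 1 library gave 4 to 7 higher and 19 to 22 lower replication genes, with a median of -0.097 to -0.069. Lower genes beyond 0.5 numbered 0 to 1, GINS3 without OV3/COX1KD replicate 1 and ORC1 without OV3/COX1KD replicate 3, and 0 higher genes went beyond it in these fits. For the other replication list the ranges were 13 to 19 higher and 23 to 29 lower, and for all genes 3963 to 4852 higher and 3161 to 4137 lower. POLD4 lost its call without OV3/SCR replicate 3 (-0.46).

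Directions turned only in 10 genes without a call. With total counts they were MCM2 (-0.037), ORC3 (-0.047), CDC7 (-0.040), POLA1 (-0.029), POLD2 (-0.0071), RPA2 (-0.031) and TK1 (-0.039). After GC and length offsets they were ORC3 (-0.029) and CDC7 (-0.015), in both fits. With no filter they were ORC2 (0.0070), RRM2 (0.0029) and TYMS (0.021). Leaving out 1 library gave -0.045 to 0.017 for ORC2, -0.0023 to 0.097 for RPA2 and -0.026 to 0.033 for TYMS. The cause was not tested.

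Whether the replicate numbers pair the cultures cannot be decided from 3 libraries per condition. Same-numbered libraries had correlated deviations of 0.0045, 0.042 and 0.0090, and not every library correlated best with its own number. The replicate block gave 5 higher and 21 lower replication genes, a median of -0.08, 15 higher and 31 lower genes of the other list, and 4437 higher and 3796 lower genes in all, and it changed no call of the 49. These data are limited to 1 clone per condition and to transcript levels.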

Other observations

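Neighbouring genes were examined after the values had been seen. For each of the 48 replication genes with coordinates, tested genes no further than 2 Mb away were taken if their mean log2 CPM was 1 or more. The median of their medians was 0.04 around the 20 lower genes, with a range from -0.20 to 0.16, and it was 0.05 around the 5 higher genes and 0.04 around the 23 without a call. The neighbours had a median of the same sign as the gene for 6 of the 20 lower genes and for 4 of the 5 higher genes. For the genes without a call this was so in 12 of 23. The typical neighbour median was above 0 in every group, so matching signs were more likely for higher than for lower genes. No such share was computed over all genes, and a link between a gene and its neighbours was not tested.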
